A study of Mus musculus with 8 samples.

Results

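The 9 transcription factors Erg, Fli1, Sox7, Sox18, Tal1, Lyl1, Gata2, Hhex and Mecom, all known for their part in endothelial identity, were followed through cells sorted from mouse kidney. They were chosen by name for that role, and each of the 9 was on a line of the deposited count table that held all 8 counts, out of 17326 such lines. The 8 libraries came from glomerular endothelium and from podocytes, each sorted from EMCN+/+ (wild-type) and EMCN-/- (knockout) kidneys, with 2 libraries in each of the 4 groups. Emcn encodes endomucin, a sialomucin of the endothelial surface, and the study compared kidneys with and without it. The labels give no strain, age, sorting marker or design of the mutant allele, and they do not say that the libraries of a group came from separate animals, so the p-values below measure the spread between these samples, which may be technical.

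Endothelial identity rests on a small circuit of DNA-binding proteins that switch on one another and the genes for junctions, growth factor receptors and surface proteins. Erg and Fli1 are ETS factors, which bind sites built around the letters GGAA. Sox7 and Sox18 belong, with Sox17, to the SOXF group of high-mobility-group factors, and Sox18 also starts lymphatic identity. Tal1 and Lyl1 are closely related basic helix-loop-helix factors that act with E proteins and with the bridging proteins Lmo2 and Ldb1, often beside a GATA factor. Gata2 is such a zinc finger factor, Hhex is a homeobox repressor of early vessels, blood and liver, and Mecom is a zinc finger factor of blood stem cells and vessels. Several are shared with blood cells, among them Fli1, Tal1, Lyl1, Gata2, Hhex and Mecom. Gata2 also acts in principal cells of the collecting duct, where it promotes the water channel gene Aqp2.

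On GRCm38 the genes lie at chr16:95359169-95586593 (Erg, minus strand), chr9:32422204-32542861 (Fli1, minus), chr14:63943673-63950732 (Sox7, plus) and chr2:181669836-181671640 (Sox18, minus). Tal1 lies at chr4:115056426-115071755 (plus), Lyl1 at chr8:84701457-84704715 (plus), Gata2 at chr6:88193891-88207032 (plus), Hhex at chr19:37434810-37440731 (plus) and Mecom at chr3:29951296-30548008 (minus).

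Upstream sequence was available for 6 of the 9 factors (Erg, Tal1, Lyl1, Gata2, Hhex and Mecom), as 11 windows of 250 bases that end just before a RefSeq start on GRCm38.p6. The 3 windows shown are those of the related pair Tal1 and Lyl1, because their low levels in podocytes are described below, and of the ETS factor Erg. Capitals mark the ETS core GGAAG and the GATA core GATAA on either strand (CTTCC and TTATC on the other one), written 5′ to 3′ on the strand of the gene.
Tal1, chr4:115056176-115056425, plus strand: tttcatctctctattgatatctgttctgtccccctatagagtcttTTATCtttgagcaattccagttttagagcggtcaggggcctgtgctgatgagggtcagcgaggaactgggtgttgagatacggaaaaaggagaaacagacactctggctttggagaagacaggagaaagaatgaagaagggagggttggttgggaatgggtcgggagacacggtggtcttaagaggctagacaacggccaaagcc
Lyl1, chr8:84701207-84701456, plus strand: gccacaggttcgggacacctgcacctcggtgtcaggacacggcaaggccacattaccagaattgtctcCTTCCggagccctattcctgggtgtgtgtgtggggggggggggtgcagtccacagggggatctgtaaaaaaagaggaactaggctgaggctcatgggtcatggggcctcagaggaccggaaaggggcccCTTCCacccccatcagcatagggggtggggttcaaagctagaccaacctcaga
Erg, chr16:95586594-95586843, minus strand: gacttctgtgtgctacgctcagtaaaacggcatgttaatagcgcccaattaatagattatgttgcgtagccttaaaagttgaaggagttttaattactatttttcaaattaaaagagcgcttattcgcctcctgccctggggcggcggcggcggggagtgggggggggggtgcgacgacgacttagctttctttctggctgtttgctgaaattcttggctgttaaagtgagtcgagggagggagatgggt
The Tal1 window shown held 1 GATA core and no ETS core, the Lyl1 window held 2 ETS cores and no GATA core, and the Erg window shown held neither. Other starts of these genes differed: a second Tal1 window, at chr4:115057561-115057810, held 1 ETS core and no GATA core, and of the other 2 Erg windows each held 1 ETS core and that at chr16:95459349-95459598 also held 1 GATA core. The first Lyl1 match was part of the longer ETS motif CCGGAAG, which 6.91% of all 32851 windows of the same length held. Of the 11 windows, 6 held the ETS core against 64.1% of all windows, and 4 held the GATA core against 22.6%. A match of these letters is a description of the window and not a measured binding site.

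On the complete lines the libraries summed to between 10478956 and 17386042 counts. In the comparison of knockout with wild type, Emcn had a log2 fold change of -3.43 (SE 0.35, edgeR adjusted p 0.0205) in endothelium and -3.38 (SE 0.36, adjusted p 0.0321) in podocytes, in the direction of the labels. Both calls were lost under some alternatives, with adjusted p-values up to 0.191 and 0.558, and the podocyte value was -2.74 without replicate 2 of wild-type podocytes. Of the 16 endothelial markers read, 15 had a higher value in wild-type endothelium than in wild-type podocytes and 14 of them passed (edgeR adjusted p under 0.05, where 4.26% of all genes were higher). Of 8 podocyte markers all 8 had a lower value there and 7 passed, where 4.73% of all genes were lower. The claudin gene Cldn5 was the 1 endothelial marker that was lower in endothelium, and it stood at 109 and 126 CPM (CPM being a gene's counts as a fixed share of the library's total, scaled between libraries by edgeR's TMM method) in wild-type endothelium against 404 and 284 CPM in wild-type podocytes. Each library held transcripts of other kidney cells. The summed level of 6 tubule markers, among them the loop of Henle gene Umod and Aqp2, lay between 3363 and 20143 CPM in the 4 endothelial libraries and between 5641 and 14226 CPM in the 4 podocyte libraries, and it was highest in replicate 3 of wild-type endothelium.

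**Figure D1:**
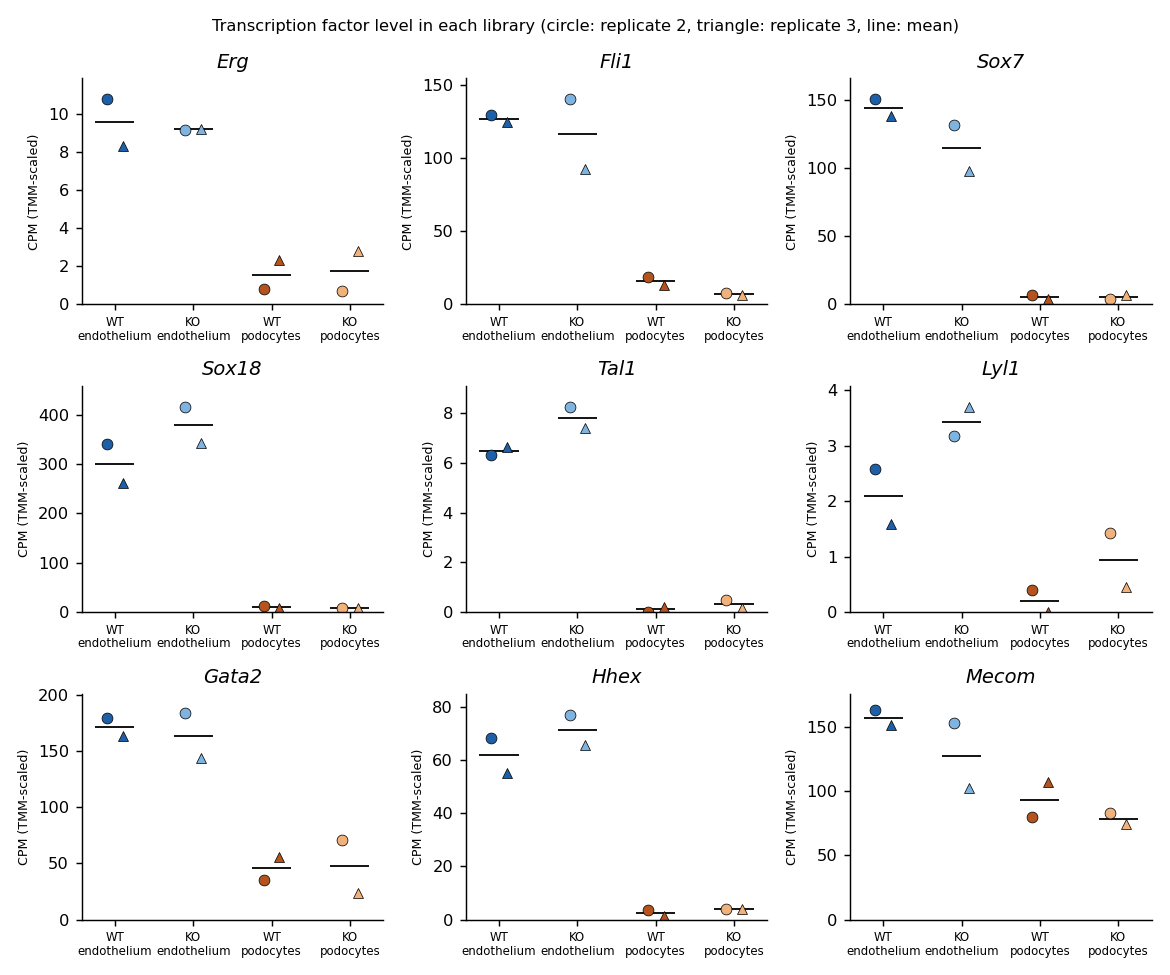
Level of each of the 9 transcription factors (vertical axis, TMM-scaled CPM, linear from 0) in the 2 libraries of each of the 4 groups, with the group mean as a line, circles for replicate 2 and triangles for replicate 3. In 9 of 9 panels the wild-type endothelial libraries lie above the wild-type podocyte libraries, and Mecom shows the smallest gap as a ratio of the group means.

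Within endothelium the factors spanned a wide range of transcript level. To compare genes, CPM were divided by the length of each gene's merged exons in kilobases. On this scale Sox18 led, at 185.8 ± 34.9 CPM per kb (SD, n = 2) in wild-type endothelium, which placed it above 98.4% of the 14104 tested genes with an exon length. Sox7 (43.8 ± 2.68), Fli1 (36.4 ± 1.03) and Gata2 (31.7 ± 2.04 CPM per kb, SD, n = 2) came next, and each neighbouring pair in this order was apart in its libraries. Mecom (12.6 ± 0.66) and Hhex (12.2 ± 1.88 CPM per kb, SD, n = 2) overlapped each other. Erg, Tal1 and Lyl1 formed the low end, at 2.76 ± 0.50, 1.48 ± 0.06 and 1.16 ± 0.39 CPM per kb (SD, n = 2). The highest mean was 160-fold above the lowest.

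The order was nearly repeated in knockout endothelium. Sox18 was again first, at 234 ± 32.0 CPM per kb (SD, n = 2), and Erg was again seventh, at 2.65 ± 0.01. Hhex stood above Mecom there, at 14.1 ± 1.61 against 10.2 ± 2.89 CPM per kb (SD, n = 2), and Lyl1 overlapped Tal1. The libraries of Sox7, Fli1 and Gata2 overlapped from each to the next, so their order was not resolved in knockout endothelium. In wild-type podocytes a different factor led, Gata2 at 8.45 ± 2.62 CPM per kb (SD, n = 2), and Gata2, Mecom, Sox18 and Fli1 overlapped from each to the next. In knockout podocytes Gata2 was also first (8.78 ± 6.21) and overlapped Mecom (6.32 ± 0.46 CPM per kb, SD, n = 2).

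The related pairs were unequal to different degrees. Fli1 exceeded Erg per kb by 11.9-fold and 14.9-fold in the wild-type endothelial libraries, and by 15.2-fold and 9.98-fold in the knockout ones. Sox18 exceeded Sox7 by 4.60-fold and 3.84-fold in wild-type endothelium, and by 6.43-fold and 7.14-fold in knockout endothelium. The Sox18 to Sox7 ratio was therefore higher in both knockout endothelial libraries than in both wild-type ones, a difference that was not tested. Of single genes, 24.8% lay above and 19.7% below without overlap between these groups. In podocytes the Sox18 to Sox7 ratio was 3.99 and 3.92 in wild type and 4.36 and 2.19 in knockout, so the groups overlapped there. The ratio of Tal1 to Lyl1 per kb was 1.72 in replicate 3 of wild-type endothelium and 0.82 in replicate 3 of knockout endothelium, so neither gene was the higher one in all 4 endothelial libraries.

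Setting wild-type endothelium against wild-type podocytes shows how far these factors separate the sorted populations. A total of 7 of the 9 were higher in endothelium by edgeR's quasi-likelihood test (adjusted p under 0.05), namely Sox18, Sox7, Hhex, Tal1, Fli1, Erg and Gata2, and Lyl1 and Mecom did not pass. Over all 16477 genes tested, 4.26% were higher in endothelium by the same rule. The median log2 fold change of the 9 was 3.32, against -0.01 over all genes. In 9 of 9 factors both endothelial libraries lay above both podocyte libraries, where 21.2% of all genes did so. In bulk libraries, fewer cells of a type and less RNA per cell cannot be told apart.

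**Figure D2:**
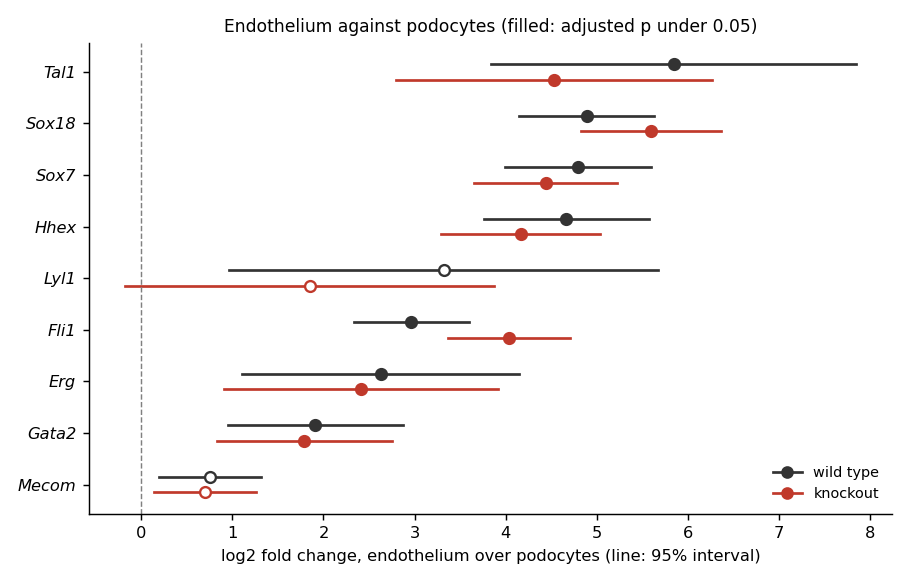
Log2 fold change of endothelium over podocytes for each factor, in wild type (black) and knockout (red), with the 95% interval of the fit as a line and filled points for an adjusted p under 0.05. Tal1, Sox18, Sox7 and Hhex lie between 4.16 and 5.84 in both genotypes, and Mecom lies at 0.75 and 0.70.

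The SOXF pair showed large and tightly estimated differences. Sox18 stood at 341 and 261 CPM in wild-type endothelium and at 12.8 and 7.40 CPM in wild-type podocytes. Endothelium was far above podocytes in each library, with a log2 fold change of 4.89 (SE 0.33, edgeR adjusted p 3.57e-05), and 57 of the 16477 genes had a larger one. Sox7 stood at 151 and 138 CPM against 6.55 and 3.85 CPM, a log2 fold change of 4.79 (SE 0.36, adjusted p 4.85e-05). The homeobox factor Hhex was of the same size of difference. It stood at 68.5 and 55.1 CPM in endothelium and 3.50 and 1.31 CPM in podocytes, a log2 fold change of 4.67 (SE 0.41, adjusted p 8.09e-05), which was 5.57 without replicate 2 of wild-type podocytes. In knockout the 3 differences were 5.60 (Sox18, SE 0.35), 4.44 (Sox7, SE 0.36) and 4.16 (Hhex, SE 0.39), all past the threshold. Knockout podocytes held Sox18 at 8.51 and 7.15 CPM, Sox7 at 3.98 and 6.64 CPM, and Hhex at 3.98 and 3.98 CPM.

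The ETS pair differed in level and in precision. Fli1 stood at 130 and 124 CPM in wild-type endothelium and at 19.0 and 13.5 CPM in wild-type podocytes, and the log2 fold change was 2.97 (SE 0.29, edgeR adjusted p 0.000127). The podocyte level was 12.8% of the endothelial one. Erg had few counts for a factor of this role, 142 and 115 in wild-type endothelium and 12 and 32 in wild-type podocytes, or 10.8 and 8.32 against 0.78 and 2.32 CPM. Its libraries did not overlap, and its log2 fold change was 2.63 (SE 0.69, adjusted p 0.0377). In knockout the endothelial and podocyte libraries of Erg were again apart, at 9.17 and 9.20 against 0.68 and 2.80 CPM (log2 fold change 2.41, SE 0.68, adjusted p 0.0484). The Erg call was the least secure of the 7. In wild type it was lost when replicate 2 or 3 of wild-type endothelium (adjusted p 0.128 and 0.0875), replicate 2 or 3 of knockout endothelium (0.0545 and 0.0540) or replicate 2 of wild-type podocytes (0.241) was left out, and with scaling by library size alone (0.0584). The value was 3.60 without replicate 3 of wild-type podocytes and 2.05 without replicate 2. In knockout it was lost without any 1 of the 4 endothelial libraries (adjusted p between 0.0638 and 0.143), without replicate 2 of knockout podocytes (0.228), and with library size alone, a minimum mean of 5 CPM or a fit of only the 4 knockout libraries (0.0554, 0.0551 and 0.0680). The knockout value was 3.72 without replicate 3 of knockout podocytes and 1.70 without replicate 2.

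The helix-loop-helix pair had few counts in podocytes. Tal1 had 83 and 92 counts in wild-type endothelium and 0 and 3 counts in wild-type podocytes. The ratio of the summed counts, scaled for library size, was 63.2 with a 95% counting interval of 21.3 to 309, which covers counting error only. In knockout Tal1 had 117 and 86 counts in endothelium against 8 and 2 in podocytes, a ratio of 23.3 (interval 12.4 to 49.4). The fitted log2 fold changes were 5.84 (SE 0.90, edgeR adjusted p 0.00193) in wild type and 4.53 (SE 0.78, adjusted p 0.00408) in knockout. The wild-type value was 9.51 without replicate 3 of wild-type podocytes, which leaves 0 counts, and 4.85 without replicate 2 of them. The knockout value was 5.64 without replicate 2 and 3.95 without replicate 3 of knockout podocytes, and both calls held in every one of these fits. Lyl1 was rarer, with 34 and 22 counts in wild-type endothelium and 6 and 0 in wild-type podocytes, and its libraries did not overlap. Its ratio was 10.1 (interval 4.36 to 28.7), and its log2 fold change of 3.32 (SE 1.06) did not pass (adjusted p 0.0912). Without replicate 2 of wild-type podocytes, which leaves a group at 0, Lyl1 passed (adjusted p 0.0480), as it did by DESeq2 (adjusted p 0.0104). In knockout Lyl1 had 45 and 43 against 23 and 6 counts, a log2 fold change of 1.85 (SE 0.91, adjusted p 0.265). With each library left out the Lyl1 value ran from 2.40 (without replicate 3 of wild-type podocytes) to 7.84 (without replicate 2) in wild type, and from 1.25 (without replicate 3 of knockout podocytes) to 2.92 (without replicate 2) in knockout.

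The zinc finger factors were the least separated. Gata2 stood at 179 and 164 CPM in wild-type endothelium and 35.6 and 55.6 CPM in wild-type podocytes, a log2 fold change of 1.91 (SE 0.44, edgeR adjusted p 0.0189). In knockout it stood at 183 and 144 against 71.1 and 23.7 CPM, a log2 fold change of 1.79 (SE 0.43, adjusted p 0.0246). The endothelial libraries were above the podocyte libraries in both genotypes. The wild-type call was lost without replicate 2 of wild-type endothelium (adjusted p 0.0694), replicate 3 of wild-type endothelium (0.0597), replicate 2 of wild-type podocytes (0.213) or replicate 3 of wild-type podocytes (0.0583), and the knockout call without replicate 2 of knockout endothelium (0.104) or in a fit of only the 4 knockout libraries (0.0662). Without replicate 3 of knockout podocytes the knockout difference was 1.20, and without replicate 2 of them 2.78. Mecom stood at 163 and 151 CPM in wild-type endothelium and 80.1 and 107 CPM in wild-type podocytes. Its libraries did not overlap, but its log2 fold change of 0.75 (SE 0.25, 95% interval 0.19 to 1.31) did not pass (adjusted p 0.110), and a fit of only the 4 wild-type libraries called it (adjusted p 0.0333). In knockout the values were 153 and 102 against 82.6 and 74.4 CPM, a log2 fold change of 0.70 (SE 0.25, adjusted p 0.122). Mecom shares 81 exon bases with the antisense gene Mecomos on the other strand, and the use of strand in counting is not stated in the labels or headers.

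In knockout cells, 7 of the 9 factors were higher in endothelium than in podocytes, the same 7 as in wild type, where 4.28% of all genes were higher by this rule. The median log2 fold change was 4.04, against -0.01 over all genes, and 9 of 9 factors were apart in their libraries, where 27.3% of all genes were. A call in each genotype does not test the difference between them, which the interaction below does.

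The levels left in podocyte libraries varied from factor to factor. Mean podocyte CPM as a percent of mean endothelial CPM in wild type was 1.68% for Tal1, 3.36% for Sox18, 3.59% for Sox7 and 3.89% for Hhex. It was 9.31% for Lyl1, 12.8% for Fli1, 16.2% for Erg, 26.6% for Gata2 and 59.5% for Mecom. Among the 16 endothelial markers the same percent had a median of 7.43% and ran from 2.96% for Egfl7 to 294% for Cldn5, with 4.27% for the adhesion gene Pecam1, 4.25% for the VEGF receptor Kdr, 3.33% for the receptor Tie1, 24.8% for Vwf and 39.4% for Plvap. By these means the first 4 factors lay under the Pecam1 value and Mecom lay above Plvap. Single wild-type podocyte libraries, replicate 2 and then 3, gave 0% and 3.36% for Tal1, 18.6% and 0% for Lyl1, 8.14% and 24.3% for Erg, 20.8% and 32.5% for Gata2, and 5.66% and 2.11% for Hhex. Pecam1 was at 5.14% and 3.39% in the same libraries, so Hhex was above it in replicate 2. Gata2 was slightly above Vwf (19.2% and 30.5%) in each of these libraries, though the ranges of Gata2 and Vwf overlapped. In knockout the percent was 2.06% for Sox18, 4.12% for Tal1, 4.62% for Sox7, 5.57% for Hhex, 6.07% for Fli1, 19.0% for Erg, 27.2% for Lyl1, 28.9% for Gata2 and 61.6% for Mecom, and 4.33% for Pecam1. Single knockout podocyte libraries, again replicate 2 and then 3, gave 6.35% and 1.88% for Tal1, 41.6% and 12.9% for Lyl1, 7.44% and 30.5% for Erg, and 43.4% and 14.5% for Gata2. The part of endothelial RNA in the podocyte libraries in these levels was not tested.

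**Figure D3:**
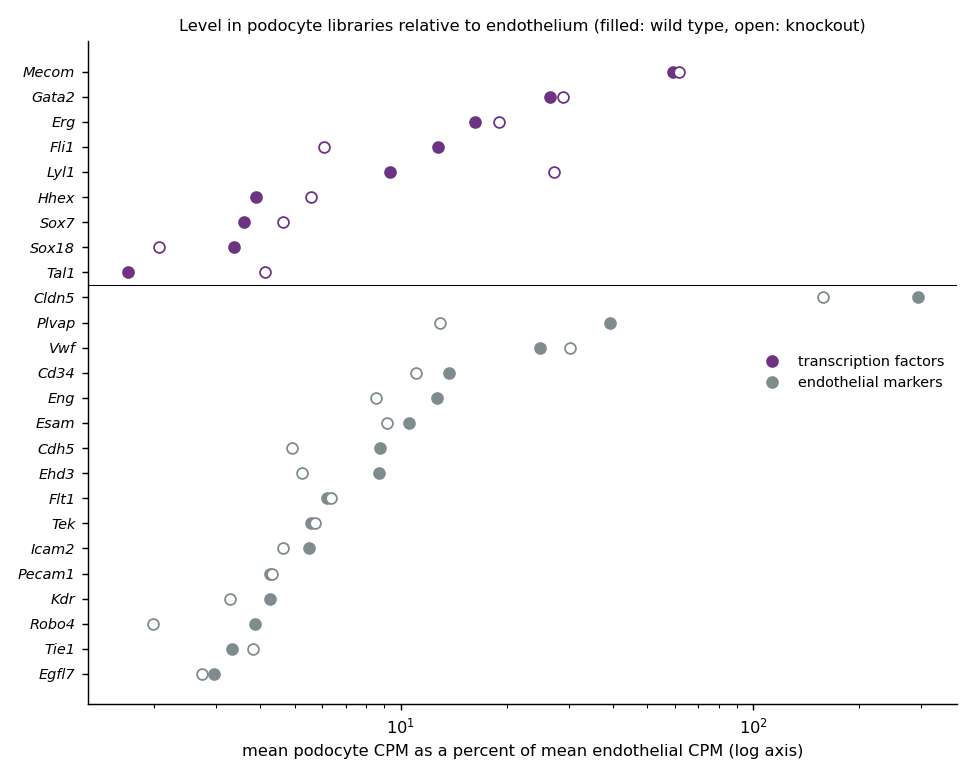
Mean podocyte CPM as a percent of mean endothelial CPM (horizontal log axis), in wild type (filled) and knockout (open), for the 9 factors (purple) and 16 endothelial markers (grey). In wild type Tal1, Sox18, Sox7 and Hhex lie between 1.68% and 3.89%, under the marker median of 7.43%, and in knockout Hhex (5.57%) lies just above the marker median of 5.48%; Mecom is at 59.5% and 61.6%.

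Gata2 in the podocyte libraries was set beside Aqp2, chosen after the values were seen. Aqp2, the water channel of principal cells, stood at 1803, 1204, 657 and 469 CPM in replicate 2 of knockout, replicate 3 of wild-type, replicate 2 of wild-type and replicate 3 of knockout podocytes. Gata2 had the same order in these 4 libraries, at 71.1, 55.6, 35.6 and 23.7 CPM. In endothelium the order was not shared: Aqp2 was highest in replicate 3 of wild type, at 2142 CPM against 437, 529 and 300 CPM in the others, and Gata2 was at 164 CPM there, below replicate 2 of wild type and replicate 2 of knockout. The part of collecting duct RNA in the podocyte level of Gata2 was not tested. Of the other 5 tubule markers read (Calb1, Fxyd2, Kap, Lrp2 and Umod) 0 shared the podocyte order, and Umod stood at 1225, 6018, 1734 and 5416 CPM in the same 4 libraries. The related gene Gata3, also of the collecting duct, did not share it either, at 128, 133, 141 and 62.3 CPM.

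**Figure D4:**
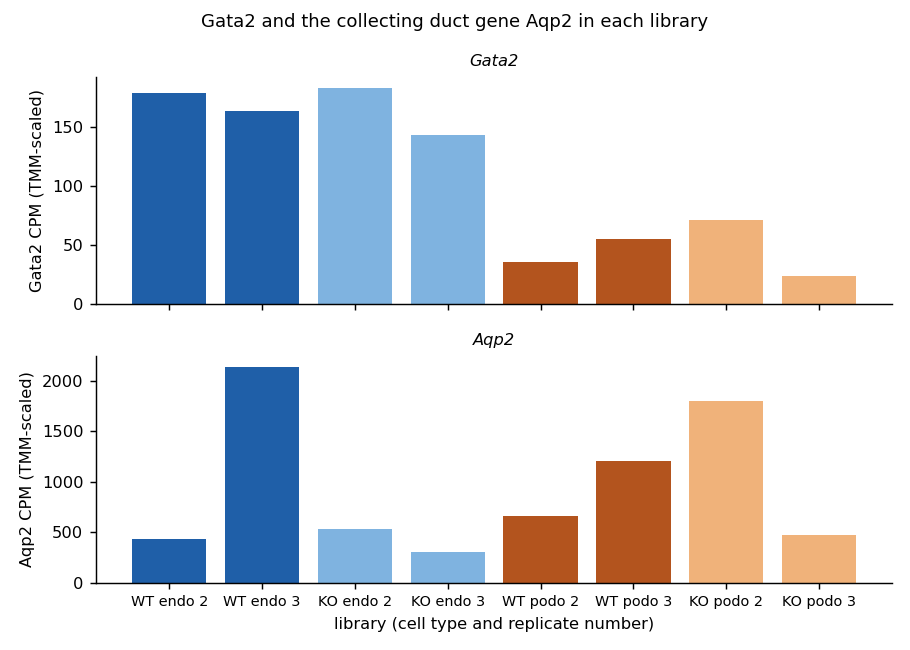
Gata2 (upper bars) and Aqp2 (lower bars) in each of the 8 libraries, in TMM-scaled CPM on linear axes from 0, coloured by group. In podocytes the 4 libraries keep 1 order for both genes, with replicate 2 of knockout highest and replicate 3 of knockout lowest, while in endothelium the library highest in Aqp2 has 164 CPM of Gata2.

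No factor passed the test for an effect of Emcn loss in endothelium. By edgeR's quasi-likelihood test 0 of the 9 passed, 0 had an unadjusted p under 0.05, and DESeq2 also called 0, giving no adjusted p for Tal1 and Lyl1. Over all genes 0.00607% were called, that is Emcn alone, and 5.49% had an unadjusted p under 0.05. The median log2 fold change of the 9 was -0.06, against 0.01 over all genes. The 9 values ran from -0.33 for Sox7 to 0.72 for Lyl1. Both knockout libraries lay above both wild-type ones for Sox18, Tal1 and Lyl1, and below them for Sox7, where 24.8% of all genes lay above and 19.7% below.

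**Figure D5:**
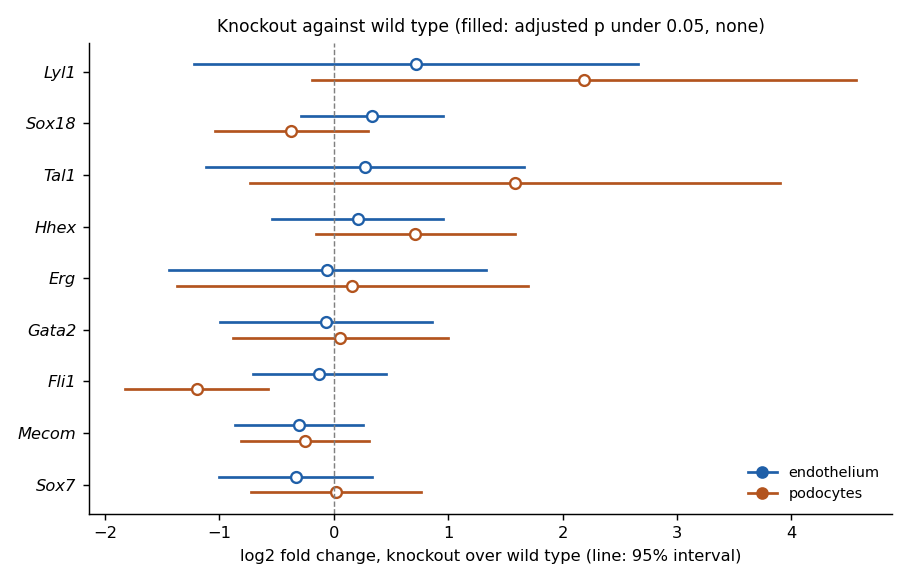
Log2 fold change of knockout over wild type for each factor in endothelium (blue) and podocytes (brown), with the 95% interval of the fit as a line. The open points mark adjusted p-values of 0.05 or more, which all 18 have, and only the podocyte interval of Fli1, from -1.82 to -0.58, leaves out 0.

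The intervals of the genotype difference in endothelium cover the spread between these samples under TMM scaling, and they were narrower for the best measured factors. Sox18 stood at 416 and 343 CPM in knockout against 341 and 261 CPM in wild type, with replicate 3 of knockout nearly level with replicate 2 of wild type, and the log2 fold change was 0.33 (95% interval -0.29 to 0.96). Sox7 stood at 132 and 97.8 against 151 and 138 CPM (-0.33, SE 0.30), and these groups did not overlap. Fli1 stood at 141 and 92.4 against 130 and 124 CPM, with the knockout libraries on either side of the wild-type ones (-0.12, interval -0.71 to 0.46). Hhex stood at 77.2 and 65.7 against 68.5 and 55.1 CPM, which overlapped (0.21, interval -0.54 to 0.96). Mecom had a log2 fold change of -0.30 (interval -0.86 to 0.26) and Gata2 of -0.07 (interval -0.99 to 0.86). The low-count factors had wider intervals, of -1.44 to 1.33 for Erg, -1.12 to 1.66 for Tal1 and -1.23 to 2.66 for Lyl1. Scaling by library size alone moved the median of all genes in this comparison to 0.33, and under it the values of Erg (0.25), Fli1 (0.22), Gata2 (0.27), Mecom (0.04) and Sox7 (0.0015) were above 0, all below that median.

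Markers of other cells also had different summed levels in these libraries, though 0 of the marker genes of any list passed the threshold. The summed level of 5 erythroid and platelet markers, of 12 fixed in the list, was 8.97 and 10.8 CPM in wild-type and 27.2 and 12.7 CPM in knockout endothelium. Its platelet genes Ppbp and Gp9 had 50 and 25 counts in replicate 2 of knockout endothelium and 7 and 2 counts in replicate 2 of wild type, and 20 and 7 counts against 10 and 3 in replicate 3. The summed tubule markers were 9158 and 20143 CPM in wild-type and 3363 and 9473 CPM in knockout endothelium, which overlapped. The 12 immediate-early and heat shock genes of the dissociation list, known to respond to tissue digestion, were 12 of 12 lower in value in knockout endothelium. Their median log2 fold change was -0.76, and 6 of the 12 had an unadjusted edgeR p under 0.05, where 5.49% of all genes had. Of the 16 endothelial markers 15 were higher in value in knockout endothelium (median log2 fold change 0.23), and of the 8 podocyte markers 7 were lower in value. The 7 mural and mesangial markers had a median of 0.21, and were split into 4 higher and 3 lower in value in knockout endothelium. Among the 4 was the pericyte gene Rgs5 at 1.67 (unadjusted p 0.0181, edgeR adjusted p 0.716), apart in its libraries. Rgs5 had few counts, between 13 and 60 per endothelial library. The 3 lower ones were Gata3 (-0.54), Itga8 (-0.53) and Des (-0.15). The summed mural level overlapped between genotypes, with 524 and 309 CPM in knockout against 665 and 434 CPM in wild-type endothelium. The part of these differences in the values of the factors was not tested.

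In podocytes 0 of the 9 passed by edgeR and 0 by DESeq2, and 1 had an unadjusted p under 0.05, where 4.43% of all genes had. The median log2 fold change of the 9 was 0.06, against 0.02 over all genes, and 0.00607% of genes were called, again Emcn alone. The factor with the smallest p was Fli1. It stood at 19.0 and 13.5 CPM in wild-type and at 7.64 and 6.49 CPM in knockout podocytes, and the groups did not overlap. The log2 fold change was -1.20 (SE 0.28, unadjusted p 0.00148, edgeR adjusted p 0.978), which ranked 17th of 16477 genes by p and did not pass. Over the alternatives its log2 value ran from -1.43 to -0.91 and its adjusted p from 0.331 to 1. The endothelial markers in the same libraries, summed without Cldn5, stood at 1042 and 828 CPM in wild type and 821 and 699 CPM in knockout, and with it at 1446 and 1112 CPM in wild type and 1003 and 1044 CPM in knockout. The 9 leukocyte markers summed to 106 and 89.5 CPM in wild type and 131 and 93.1 CPM in knockout podocytes. Without the receptor gene Csf1r, which alone stood at 67.9 to 107 CPM there, the other 8 summed to 31.4 and 21.6 CPM in wild type and 23.9 and 16.7 CPM in knockout, so that the order of the genotype means turned with that gene. The 8 podocyte markers were 8 of 8 lower in value in knockout podocytes (median log2 fold change -0.55), and 0 of them passed. They summed to 14308.5 and 8875 CPM in wild type and 6903 and 8491 CPM in knockout. The part of any of these cells in the Fli1 values was not tested.

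Of the other factors, Lyl1 and Tal1 had few counts in podocytes. Lyl1 had 23 and 6 counts in knockout against 6 and 0 in wild-type podocytes, and its fitted log2 fold change of 2.19 (SE 1.07, adjusted p 0.978) rested on those counts and reached 6.73 without replicate 2 of wild-type podocytes, which leaves 0 counts in that group, and 1.10 without replicate 2 of knockout podocytes. Tal1 had 8 and 2 counts against 0 and 3 (1.59, SE 1.04), which overlapped, and the value was 5.25 without replicate 3 of wild-type podocytes, which leaves 0 counts in that group, 0.61 without replicate 2 of wild-type podocytes and 0.47 without replicate 2 of knockout podocytes. Hhex stood at 3.98 and 3.98 against 3.50 and 1.31 CPM (0.71, 95% interval -0.16 to 1.59), and the value was 1.62 without replicate 2 and 0.18 without replicate 3 of wild-type podocytes. Both knockout podocyte libraries lay above both wild-type ones for Hhex and Lyl1 and below them for Fli1, where 15.1% of all genes lay above and 16.0% below. Sox18 (-0.37, interval -1.04 to 0.30), Sox7 (0.02, interval -0.73 to 0.76), Mecom (-0.25, interval -0.81 to 0.31), Gata2 (0.06, SE 0.42) and Erg (0.16, interval -1.37 to 1.69) overlapped between genotypes. Gata2 was -0.95 without replicate 2 and 0.64 without replicate 3 of knockout podocytes. Erg was -1.16 without replicate 3 of knockout podocytes and 1.13 without replicate 3 of wild-type podocytes, so neither had a direction that held.

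Whether the effect of Emcn loss differed between the cell types was tested by the interaction, that is, the endothelial genotype difference less the podocyte one. Of the 9 factors 0 passed by edgeR or DESeq2, 0% of all genes were called, and 1 factor had an unadjusted p under 0.05, against 2.60% of all genes. That factor was again Fli1, with a term of 1.07 (SE 0.38, unadjusted p 0.0180, edgeR adjusted p 1). Its effect was -0.12 in endothelium and -1.20 in podocytes. Sox18 had a term of 0.70 (SE 0.41), and the other 7 factors had terms between -1.47 for Lyl1 and -0.05 for Mecom. The Lyl1 term ran from -6.00 to -0.39 and the Tal1 term from -4.99 to -0.20 with each library left out, the lowest without replicate 2 (Lyl1) or 3 (Tal1) of wild-type podocytes and the highest without replicate 2 of knockout podocytes.

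Fellow factors of the circuit were split between the cell types. Of 27 further endothelial transcription factors 20 could be read. In wild type 9 were higher and 3 lower in endothelium than in podocytes, where 4.26% of all genes were higher and 4.73% lower. The third SOXF gene, Sox17, had a log2 fold change of 4.46 (SE 0.92), the homeobox genes Hlx and Meox1 of 4.35 (SE 0.32) and 4.09 (SE 0.36), the T-box gene Tbx3 of 3.10 (SE 0.31) and the Notch target Hey1 of 2.74 (SE 0.44). The forkhead gene Foxc2, which also works in podocytes, was lower in endothelium, by -3.63 (SE 0.40). Without replicate 2 of wild-type endothelium the Foxc2 value was -4.33, and without replicate 2 of wild-type podocytes the Hey1 value was 3.38. In knockout 10 of the 20 were higher and 3 lower in endothelium, where 4.28% of all genes were higher and 6.09% lower. The same 6 named genes passed. Sox17 was uneven in knockout endothelium, at 448 CPM in replicate 2 and 37.0 CPM in replicate 3, against 446 and 250 CPM in wild type. Without replicate 2 of knockout endothelium the Sox17 difference between knockout cell types was 0.73 and not past the threshold (adjusted p 0.498), and it was also lost without either knockout podocyte library (0.188 and 0.0688) or replicate 3 of wild-type podocytes (0.0510), and in a fit of only the 4 knockout libraries (0.0828). The wild-type Sox17 call was lost without either wild-type podocyte library (0.0832 and 0.113). Sox7 and Sox18 in replicate 3 of knockout endothelium stood at 97.8 and 343 CPM. Sox7, like Fli1, Gata2 and Mecom, was at its lowest endothelial level in that library, and Sox18 was not.

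Of 12 cofactors of the Tal1 and GATA complexes 11 could be read, and 4 were higher and 1 lower in wild-type endothelium, where 4.26% of all genes were higher and 4.73% lower. Lmo2, the bridge between Tal1 and GATA factors, stood at 132 and 103 CPM in wild-type endothelium and at 4.41 and 3.56 CPM in podocytes, with no overlap and a log2 fold change of 4.88 (SE 0.31, edgeR adjusted p 3.09e-05). Ldb2, a scaffold related to Ldb1, differed by 3.86 (SE 0.23), the corepressor gene Cbfa2t3 by 2.14 (SE 0.36) and the E protein gene Tcf4 by 1.28 (SE 0.22). The widely expressed Ldb1, Tcf3 and Tcf12 did not pass, at 0.55, 0.54 and 0.09. Ssbp2, which stabilises the Ldb proteins, was lower in endothelium (-0.96, SE 0.25, adjusted p 0.0382). That Ssbp2 call was lost with DESeq2 size factors (adjusted p 0.0604), with library size alone (0.156) and without any 1 of the 4 endothelial libraries or replicate 2 of wild-type podocytes (adjusted p between 0.0510 and 0.371). The Tcf4 call was lost without replicate 3 of wild-type podocytes (adjusted p 0.0526). In knockout the same 5 cofactors passed in the same directions, where 4.28% of all genes were higher and 6.09% lower, and the Ssbp2 call was lost with library size alone (0.193), without replicate 2 or 3 of knockout endothelium (0.0871 and 0.139) and without replicate 2 of knockout podocytes (0.112).

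By genotype, 0 of these 20 factors and 0 of the 11 cofactors passed in either cell type or in the interaction by edgeR. The smallest p-values in endothelium belonged to Foxc2 (log2 fold change -0.78, SE 0.40) and Klf4 (-0.39, SE 0.25) among the factors, and to Gata1 (0.95, SE 0.65) and Lmo2 (0.38, SE 0.26) among the cofactors. In podocytes they belonged to Heyl (1.29, SE 0.45), Etv6 (-0.61, SE 0.24), Lmo2 (0.75, SE 0.29) and Ldb2 (-0.33, SE 0.21). With 1 library left out, Foxc2 in endothelium was -0.09 and -1.26 (without replicate 2 or 3 of wild-type endothelium), and Heyl in podocytes was 0.36 and 1.85 (without replicate 2 or 3 of knockout podocytes). The interaction had its smallest p-values for Klf4 (-0.82, SE 0.35), Hey1 (1.21, SE 0.60), Ldb1 (-0.78, SE 0.47) and Lmo2 (-0.38, SE 0.39). The Hey1 term was 0.58 without replicate 2 of wild-type podocytes. The adjusted p-values of these genes were at least 0.716.

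The 9 factors were compared in shape by centring each one's log2 CPM on its own mean over the 8 libraries and taking the root mean square difference, in log2 units, between genes. Hhex and Sox7 were each other's nearest factor, at 0.43. Sox18 lay nearest to Sox7 at 0.49, Tal1 nearest to Hhex at 0.73, and Fli1 nearest to Sox7 at 0.75. Gata2 and Mecom were each other's nearest at 0.73, while Erg and Lyl1 both lay nearest to Gata2, at 0.94 and 1.02. Among all other genes whose mean reached 5 CPM, the 6 closest to the median profile of the factors were Ccrl2 (0.14), Ramp2 (0.17), Dysf (0.18), Jag2 (0.19), Abi3 (0.20) and BC028528 (0.20). Ccrl2, an atypical chemokine receptor, stood between 253 and 266 CPM in the 4 endothelial libraries and between 16.8 and 25.5 CPM in the 4 podocyte libraries. Ramp2, a partner of the adrenomedullin receptor, stood between 186 and 256 CPM and between 11.7 and 16.6 CPM. These 8 points share 2 cell types, and no test was made of these likenesses.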

How the data were processed

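Polyadenylated RNA from sorted mouse kidney cells was sequenced from TruSeq libraries, per the labels' protocols. The values, deposited by the authors as 1 table, are raw counts of reads for each Entrez gene. The submitters' processing notes name the build mm10 and DESeq2; the aligner, counting tool and use of strand are not given in the sources used here. Of 22533 gene lines, 5207 (23.11%) held fewer than 8 counts and were left out; these short lines leave 3 columns of counts partly empty in the deposited table.

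Counts were analysed with edgeR 4.0.16 in R 4.3.3: filterByExpr (16477 genes, all 9 factors), TMM scaling, 1 mean per group over all 8 libraries, the quasi-likelihood F test, and Benjamini-Hochberg adjustment over all genes (threshold 0.05). Standard errors were derived from each fold change and its F statistic. Log2 CPM used a prior count of 2. Positions and exon lengths came from GENCODE M21 (GRCm38), upstream windows from RefSeq. The test was tested on simulated data. Alternatives were DESeq2 1.42.0, other scalings and filters, a replicate block, fits of 2 groups and each library left out.

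The factors, gene lists and naming rule (all 9 factors, Emcn, up to 6 listed genes past the threshold with the largest change, or the 2 of smallest p, and the 6 nearest profiles) were chosen with earlier results of these data known. Same-numbered libraries are not stated to share an animal and were not paired.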

Additional observations from a re-analysis of the deposited data

How the results depend on the processing

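Over 652 alternatives for the 9 factors, 594 kept direction and side of the threshold, 20 lost a call, 3 gained one and 35 changed sign, each of these 35 in a comparison of genotypes or the interaction. In a replicate block, which pairs libraries by number, the 7 and 7 calls between cell types and the 0 calls by genotype were kept in number, and Gata2 in podocytes had -0.061. No label ties same-numbered libraries to an animal or batch, and deviations correlated at -0.13 between wild-type cell types, 0.11 between knockout cell types, 0.19 between genotypes in endothelium and 0.16 in podocytes. The block called 1831 against 1481 genes between wild-type cell types and 2241 against 1709 between knockout ones, and 1 by genotype in each cell type. A block with crossed podocyte numbers, chosen after seeing the data, called 1357 in wild type. With each library left out, the counts were 769 to 1672 (wild type), 960 to 1809 (knockout), 0 to 1 by genotype in each cell type, and 5 to 7 of the factors in each genotype. By genotype, library size alone and a minimum mean of 5 CPM called 0 genes in each cell type, DESeq2 called 4 in endothelium and 8 in podocytes, and a fit of podocytes alone called 0. Library size alone split the knockout cell-type calls into 738 higher and 480 lower, against 705 and 1004, and moved the median of all genes in that comparison by 0.28. In endothelium by genotype, library size alone gave 0.25 (Erg), 0.22 (Fli1), 0.27 (Gata2), 0.039 (Mecom) and 0.0015 (Sox7), and the 5 CPM minimum gave 0.10 (Erg), 0.042 (Fli1) and 0.10 (Gata2). In the interaction the same settings gave 0.15 and 0.033 (Emcn), 0.10 and 0.0033 (Gata2), and 0.18 and 0.055 (Mecom). Sox7 in podocytes had -0.0104 with DESeq2 and -0.0108 with its size factors. With each library left out, genotype values ran in endothelium from -0.24 to 0.13 (Erg), -0.47 to 0.14 (Fli1) and -0.26 to 0.090 (Gata2), in podocytes from -1.16 to 1.13 (Erg), -0.95 to 0.64 (Gata2), -0.71 to 0.11 (Sox18) and -0.39 to 0.47 (Sox7), and in the interaction from -0.67 to 0.37 (Emcn), -1.20 to 1.10 (Erg), -0.71 to 0.87 (Gata2), -1.39 to 0.019 (Hhex), -0.38 to 0.20 (Mecom) and -0.79 to 0.050 (Sox7). Beyond fewer libraries or genes where the alternative has them, the cause was not tested. Lyl1 rested on 0 to 45 counts in each library.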
